A study of Mus musculus with 24 samples.

Results

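Acyl-CoA thioesterases were described here in mouse liver through 7 genes, Acot1, Acot2, Acot3, Acot4, Acot8, Acot12 and Acot13, of 18650 genes tested on the same arrays. They were taken by the gene name that the scanner files give to each spot, and 9 probes carried one of these names. Of several probes for a gene, the one brightest on average in Cy5 over all arrays was used. The study asked how galactose in place of part of the dietary glucose after weaning affects the liver. Mice of the inbred strain C57BL/6JRcc, all labelled female, were housed singly and entered one of 2 semi-synthetic diets at 3 weeks of age. In the GLU+GAL diet (12 mice) glucose and galactose made up the monosaccharides in equal parts, and in the GLU diet (12 mice) glucose made up all of them. Both diets drew 32% of energy from monosaccharides, 32% from starch, 20% from protein and 16% from fat. At postnatal day 42, at 6 weeks of age, the right lobe of the liver was collected from mice without food in the light phase, so both groups shared the food-deprived state. RNA of each mouse, labelled with Cy5, was hybridised on 1 array against 1 Cy3-labelled pool of all mice, and every value below is a log2 ratio of that mouse over the pool unless another scale is named. In whole liver, fewer cells of a type and less RNA per cell cannot be told apart.

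Acyl-CoA thioesterases split an acyl-CoA into the free acid and coenzyme A, the reverse of the activation step that acyl-CoA synthetases carry out. They act in the cytosol, mitochondria and peroxisomes, and so set how much acyl-CoA and free coenzyme A each compartment holds. Acot1 to Acot6 are type I enzymes with an alpha/beta-hydrolase fold, and Acot7 to Acot13 are type II enzymes with a hotdog fold. Several type I genes are known targets of PPARalpha, the fatty acid sensor of the liver, and rise on fasting in mouse liver.

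Spots well above background made up 46.6% to 51.3% of an array in the Cy5 channel and 36.5% to 47.8% in the Cy3 channel. All 9 hepatocyte markers were well above background on all 24 arrays. The array of GLU+GAL 4 stood apart, where the pool signal correlated with that of the other arrays at a median of 0.987 and the log ratios had an SD of 0.44. GLU+GAL 12 gave signal for Y-linked genes and none well above background for Xist, against its label. Results were therefore also computed without these 2 mice. Each of 3 slides held 8 arrays, 4 per diet. All 7 thioesterase probes were well above background in both channels on 24 of 24 arrays, and none was saturated on any.

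The type I members lay side by side. In the RefSeq annotation of GRCm38.p6, Acot2 (chr12:83987861-83993877), Acot1 (chr12:84009502-84017670), Acot4 (chr12:84037254-84044723) and Acot3 (chr12:84052144-84060400) spanned 72.5 kb in this order. A long non-coding gene, Gm40474 (chr12:84018327-84053777), overlapped Acot4 and the start of Acot3, and Acot5 and Acot6 followed. Acot8 lay on chromosome 2 (chr2:164792768-164820219), Acot13 and Acot12 on chromosome 13 (chr13:24817955-24831489 and chr13:91741326-91786148). RefSeq promoter windows, 250 bases before to 50 bases after a start, were matched for 6 of the 7 genes, all but Acot13. Those of Acot4, Acot8 and Acot12 belong to starts inside the annotated genes, and of 2 windows of Acot3 the first is used. Transcripts of the 4 neighbours moved together across mice, but this was not particular to them. Acot8 and Acot12 followed Acot1 more closely (r = 0.83 and 0.85) than Acot3 and Acot4 did (0.55 and 0.60). Windows are shown for the 4 neighbours only. All 4 are on the plus strand of GRCm38.p6, and capitals mark matches to the motifs named after them.
Acot2, chr12:83987611-83987910: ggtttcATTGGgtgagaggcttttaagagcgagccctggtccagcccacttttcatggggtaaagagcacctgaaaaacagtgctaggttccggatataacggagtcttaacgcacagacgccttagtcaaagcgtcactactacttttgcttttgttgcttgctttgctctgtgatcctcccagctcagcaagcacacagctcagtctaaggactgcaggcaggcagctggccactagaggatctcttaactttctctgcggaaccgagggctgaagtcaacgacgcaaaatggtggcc
Acot1, chr12:84009252-84009551: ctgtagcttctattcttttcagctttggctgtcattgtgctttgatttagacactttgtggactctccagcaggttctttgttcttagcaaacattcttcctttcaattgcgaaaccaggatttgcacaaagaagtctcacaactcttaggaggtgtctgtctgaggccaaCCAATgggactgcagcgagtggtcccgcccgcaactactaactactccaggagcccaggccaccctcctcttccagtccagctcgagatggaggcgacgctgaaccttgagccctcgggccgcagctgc
Acot4, chr12:84038129-84038428: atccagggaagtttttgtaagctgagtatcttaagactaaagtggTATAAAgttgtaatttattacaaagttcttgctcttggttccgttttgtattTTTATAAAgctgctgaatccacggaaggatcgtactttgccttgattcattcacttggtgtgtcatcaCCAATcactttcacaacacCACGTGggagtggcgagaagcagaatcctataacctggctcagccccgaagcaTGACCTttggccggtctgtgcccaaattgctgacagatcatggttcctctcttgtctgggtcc
Acot3, chr12:84051894-84052193: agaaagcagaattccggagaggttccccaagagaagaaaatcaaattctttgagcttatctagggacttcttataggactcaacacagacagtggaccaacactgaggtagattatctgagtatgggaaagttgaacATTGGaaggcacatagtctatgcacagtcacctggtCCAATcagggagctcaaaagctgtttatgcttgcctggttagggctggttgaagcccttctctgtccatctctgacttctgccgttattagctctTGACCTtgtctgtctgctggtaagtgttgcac

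Matches are given for 4 motif spellings, searched on both strands with the sequences in view when they were chosen. A further 2 longer spellings were searched and seen, and are not reported here. AGGTCA, the core element of many nuclear receptors, was in 16.3% of 32851 windows of all genes. CACGTG was in 7.15% of windows, CCAAT in 37.4% and TATAAA in 13.6%. The Acot4 window held all 4, with AGGTCA on the minus strand at position -13 from the start. AGGTCA was further found in the windows of Acot3, at position 18, and of Acot12, at position -110. Those of Acot1, Acot2, Acot3 and Acot8 held CCAAT. A match describes letters in these windows and not a bound site.

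Diet did not separate the thioesterases. None of the 7 passed limma's threshold adjusted over all genes (adjusted p = 0.999 for each), where 0% of all genes passed and no adjusted p was below 0.523. The count at an unadjusted p under 0.05 was 0 of 7 members, beside 4.31% of all genes. Their differences, GLU+GAL minus GLU, ran from -0.40 to 0.0025 on the log2 scale, with a median over all genes of 0.0013. A miss of the threshold does not show that the diets act alike, and the 95% interval of each difference is therefore given.

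Acot1, the cytosolic long-chain enzyme of the type I cluster, had the lowest value -2.37, median -0.24 and highest 0.35 in GLU+GAL livers, against -1.56, -0.26 and 1.37 in GLU livers. The groups overlapped, with near-equal medians, and the lowest mice were on GLU+GAL and the highest on GLU. Means were -0.62 ± 0.89 in GLU+GAL and -0.22 ± 0.89 in GLU (SD, n = 12 each), a difference of -0.40 ± 0.33 (SE, 95% interval -1.08 to 0.28, unadjusted limma p = 0.242). Within slides 1, 2 and 3 the difference was -0.32, -0.35 and -0.52, and without GLU+GAL 3, the lowest mouse, it was -0.24. With the mouse numbers of the labels as a block, the unadjusted limma p of Acot1 was 0.0191, and it missed the adjusted threshold.

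Acot2, the mitochondrial matrix counterpart of Acot1, ran from -0.42 over a median of 0.03 to 0.51 in GLU+GAL livers, against -0.22, -0.01 and 0.60 in GLU livers. The ranges overlapped nearly in full. Its means were 0.01 ± 0.30 and 0.08 ± 0.27 (SD, n = 12 each), a difference of -0.08 ± 0.11 (SE, 95% interval -0.30 to 0.15).

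Peroxisomal Acot3, a long-chain enzyme, had a lowest value of -1.18, a median of -0.22 and a highest value of 0.98 in GLU+GAL livers, against -0.95, -0.03 and 0.19 in GLU livers. Both the lowest and the highest mouse were on GLU+GAL, and the GLU range lay within that of GLU+GAL. The difference was -0.12 ± 0.18 (SE, 95% interval -0.50 to 0.25), and within slide 1 it had the other sign, at 0.07. It was -0.24 without GLU+GAL 8 and -0.04 without GLU+GAL 12. Acot4, which in mouse peroxisomes cleaves succinyl-CoA, ran from -0.61 over -0.26 to 0.62 in GLU+GAL livers, against -0.64, 0.12 and 0.35 in GLU livers. The medians stood further apart than for Acot3, yet the ranges overlapped almost wholly. The GLU mean was above 9 of the 12 GLU+GAL mice. Its difference was -0.16 ± 0.12 (SE, 95% interval -0.42 to 0.10, unadjusted limma p = 0.209), and it was 0.03 within slide 1 and -0.36 within slide 3. Without GLU+GAL 8, the highest mouse, it was -0.23 at an unadjusted limma p of 0.0497. A second probe of Acot4 gave -0.17 (95% interval -0.34 to 0.00070, unadjusted limma p = 0.0509). Without GLU+GAL 4 and GLU+GAL 12 together the difference was -0.06 for Acot3, -0.10 for Acot4 and -0.31 for Acot1.

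The type II members had smaller differences. Acot8, a peroxisomal enzyme of broad substrate range, ran from -0.53 over -0.08 to 0.19 in GLU+GAL livers, against -0.62, -0.09 and 0.24 in GLU livers, with a difference of 0.0025 ± 0.09 (SE, 95% interval -0.17 to 0.18). Acot12, a cytosolic acetyl-CoA hydrolase of liver, ran from -0.58 over -0.0035 to 0.27 in GLU+GAL livers, against -0.47, -0.06 and 0.19 in GLU livers, with a difference of -0.02 ± 0.09 (SE, 95% interval -0.20 to 0.16). For Acot13, also called Them2 and associated with mitochondria, the values were -0.55, -0.33 and 0.05 in GLU+GAL livers, against -0.50, -0.28 and -0.12 in GLU livers. Its difference was -0.0026 ± 0.06 (SE, 95% interval -0.14 to 0.13). In all 3 genes the groups overlapped, and the sign of the difference changed with the setting.

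**Figure D1:**
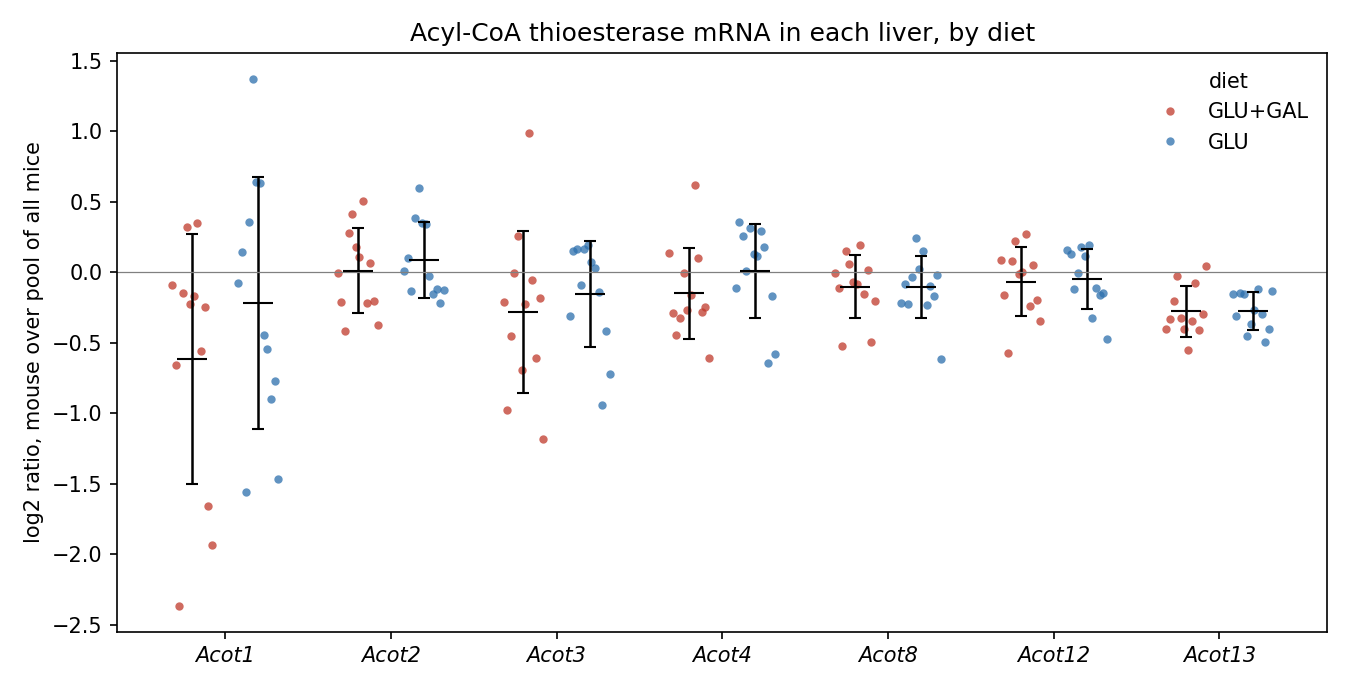
Each point is the log2 ratio of 1 mouse over the pool of all mice, for GLU+GAL (left of each pair) and GLU (right), and black bars give the mean and SD of 12 mice. The diets overlap in every gene, and Acot1 spans -2.37 to 1.37 while Acot13 spans -0.55 to 0.05.

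**Figure D2:**
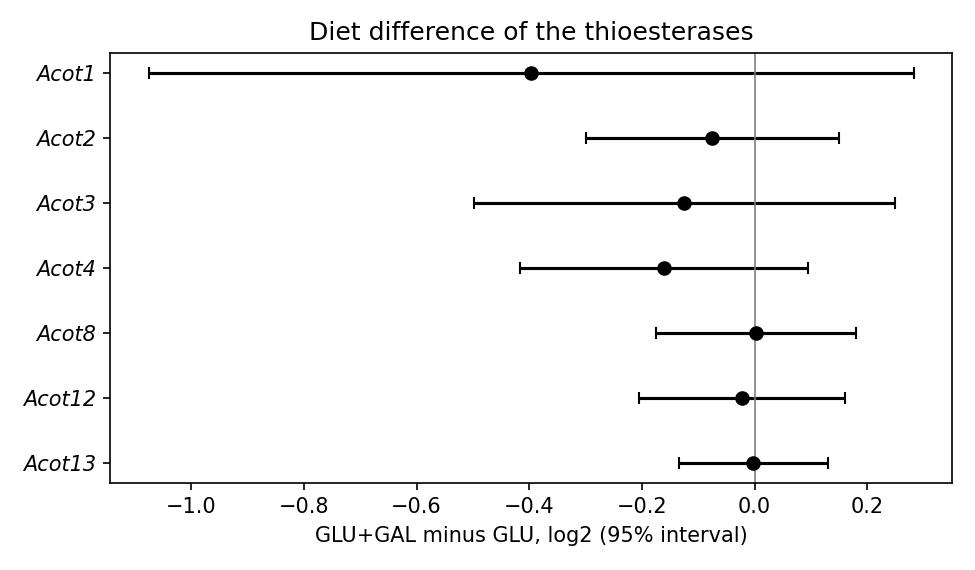
Points give the difference GLU+GAL minus GLU on the log2 scale and bars its 95% interval from limma, with 12 mice per diet. All 7 intervals include 0, and that of Acot1, from -1.08 to 0.28, is the widest.

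Single mice differed widely in some of the thioesterases. Acot1 had an SD of 0.89 over all 24 mice, above that of 99.8% of the tested genes, and the highest mouse (GLU 5) was 13.3-fold above the lowest (GLU+GAL 3). For Acot3 the SD was 0.48, above 98.6% of genes, and GLU+GAL 8 was 4.48-fold above GLU+GAL 12. Acot4 followed with an SD of 0.33 (above 94.7% of genes, 2.40-fold between GLU+GAL 8 and GLU 10) and Acot2 with 0.28 (90.5%, 2.02-fold between GLU 5 and GLU+GAL 3). Acot12 and Acot8 had SDs of 0.22 each (above 78.8% and 75.7% of genes), with 1.80-fold and 1.82-fold ranges. Acot13 had an SD of 0.15 and a 1.51-fold range. The median SD over all genes was 0.17.

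The Cy3 channel held the same pool on every array. Its spread holds that of the arrays but not that of extracting and labelling the RNA of each mouse, and the 2 sources of a wider spread in Cy5, mice and their RNA preparation, cannot be told apart. Over all tested genes the SD of Cy5 was a median of 1.84 times that of Cy3. For Acot1 the SD of the log2 Cy5 signal was 0.891 and that of the Cy3 signal 0.0689, 12.9 times smaller. The ratio of the SDs lay between 3.90 and 4.36 for Acot2, Acot3, Acot4, Acot8 and Acot12. It was smallest for Acot13, at 2.50. A second probe of Acot3 had an SD of 0.77 with the same highest and lowest mouse and followed the first with r = 0.96. The second probe of Acot4 followed its first with r = 0.81 but spread less. Its SD was 0.22, above 79.0% of genes, against 0.33 for the first, and its SD in Cy5 was 2.18 times that in Cy3. Spread did not differ detectably between the diets: the ratio of SDs, GLU+GAL over GLU, ran from 0.970 for Acot4 to 1.54 for Acot3 (permutation test with 100000 resamples, unadjusted p = 0.300 for Acot3, adjusted p = 0.989 for each of the 7). Slides differed in level for Acot1, with means of -0.47, 0.11 and -0.90 in slides 1, 2 and 3.

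**Figure D3:**
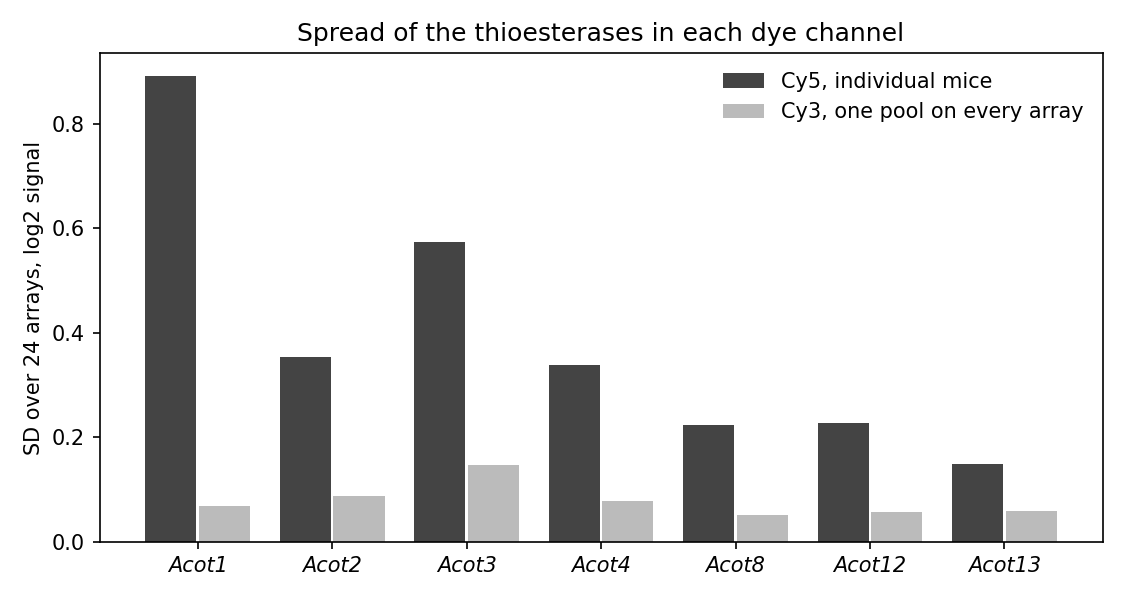
Bars give the SD of the normalised log2 signal over 24 arrays, in the Cy5 channel of individual mice (dark) and the Cy3 channel of the common pool (light). Cy5 bars are taller for each of the 7 genes, by 12.9 times for Acot1 and 2.50 times for Acot13.

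The extremes were often the same mice. GLU 5 was the highest mouse for Acot1, Acot2 and Acot8, and GLU+GAL 8 for Acot3, Acot4 and Acot12. GLU+GAL 3 was lowest for Acot1, Acot2 and Acot12. Of 21 pairs of members, 15 passed a permutation test of Pearson's r over 24 mice (100000 resamples, adjusted over the 21 pairs), all with r above 0, the loosest at 0.46. Over all tested genes, 9.25% of values of r with a member lay as far from 0, and for the 6 genes without Acot13 1.93% to 7.54% lay as far above it. The looser pairs thus lay in the upper part of the range of all genes, where genes other than the members also lay. The 15 pairs are those that can be formed without Acot13. The points share 1 hybridisation per mouse, and in the Cy3 pool channel of the same arrays 0 of 21 pairs passed, with a median r of -0.02.

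Acot1 and Acot2 correlated at r = 0.89 and rho = 0.90 (adjusted permutation p = 3.5e-05 and 4.2e-05, from unadjusted p of 1e-05, the smallest that 100000 resamples can give). Leaving out the 2 mice farthest from the Acot1 median gave r = 0.86, and within slides 1, 2 and 3 r was 0.80, 0.93 and 0.95. Acot3 and Acot4 correlated at r = 0.87 and rho = 0.81 (adjusted permutation p = 3.5e-05 and 4.2e-05). Without the 2 mice farthest from the Acot3 median r was 0.80, and within slides 1, 2 and 3 it was 0.89, 0.82 and 0.86. Between these neighbouring pairs r was lower, from 0.53 for Acot2 with Acot4 to 0.65 for Acot2 with Acot3. Acot1 with Acot3 stood at 0.55 and Acot1 with Acot4 at 0.60.

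The type II genes Acot12 and Acot8 lie on other chromosomes and also correlated with Acot1. Acot12 correlated with Acot1 at r = 0.85 and rho = 0.88 (adjusted permutation p = 3.5e-05 and 4.2e-05). Without the 2 mice farthest from the Acot1 median, r was 0.78. Acot8 correlated with Acot1 at r = 0.83 and rho = 0.79 (adjusted permutation p = 3.5e-05 and 0.00012), and r was 0.82 without the same 2 mice. Acot8 with Acot12 stood at r = 0.83, but within slide 2 at 0.33, against 0.87 and 0.92 in slides 1 and 3. With Acot2, r was 0.75 for Acot8 and 0.82 for Acot12. Both were looser with Acot3 (0.46 and 0.58) and with Acot4 (0.51 and 0.56). The Spearman test of Acot4 with Acot8 missed the threshold (rho = 0.37, adjusted permutation p = 0.0961).

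Each slide held 8 mice, and fewer pairs passed there. Within slides 1, 2 and 3, 11, 1 and 6 of 21 pairs passed an exact permutation test (adjusted over 21), and each of the 15 pairs kept r above 0 in every slide, from 0.08 to 0.95. Without the 2 mice farthest from the median of the lower-numbered member of each pair, 10 of the 15 passed. The 5 that did not were Acot1 with Acot3, Acot2 with Acot4, Acot3 with Acot8, Acot3 with Acot12 and Acot4 with Acot8, with r from 0.37 to 0.47. Values centred on the mean of their diet left 15 of 21 pairs past the threshold, and without GLU+GAL 4 and GLU+GAL 12 there were 16, these 15 and that of Acot8 with Acot13.

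Acot13 did not follow the others. Its r with the other 6 ran from -0.40 with Acot12 (adjusted permutation p = 0.0656) to -0.06 with Acot3 (adjusted permutation p = 0.783), and none passed in these values. With Cy5 alone 3 did, with Acot1 (-0.52), Acot8 (-0.56) and Acot12 (-0.48). By Spearman's rho the pair of Acot8 and Acot13 passed (rho = -0.44, adjusted permutation p = 0.0466). GLU+GAL 12, the second lowest mouse for Acot1, was the highest for Acot13. Without it and GLU+GAL 4, r of Acot13 was 0.14 with Acot3, 0.13 with Acot4 and -0.42 with Acot12, and the pair with Acot8 passed (r = -0.48, adjusted permutation p = 0.037).

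**Figure D4:**
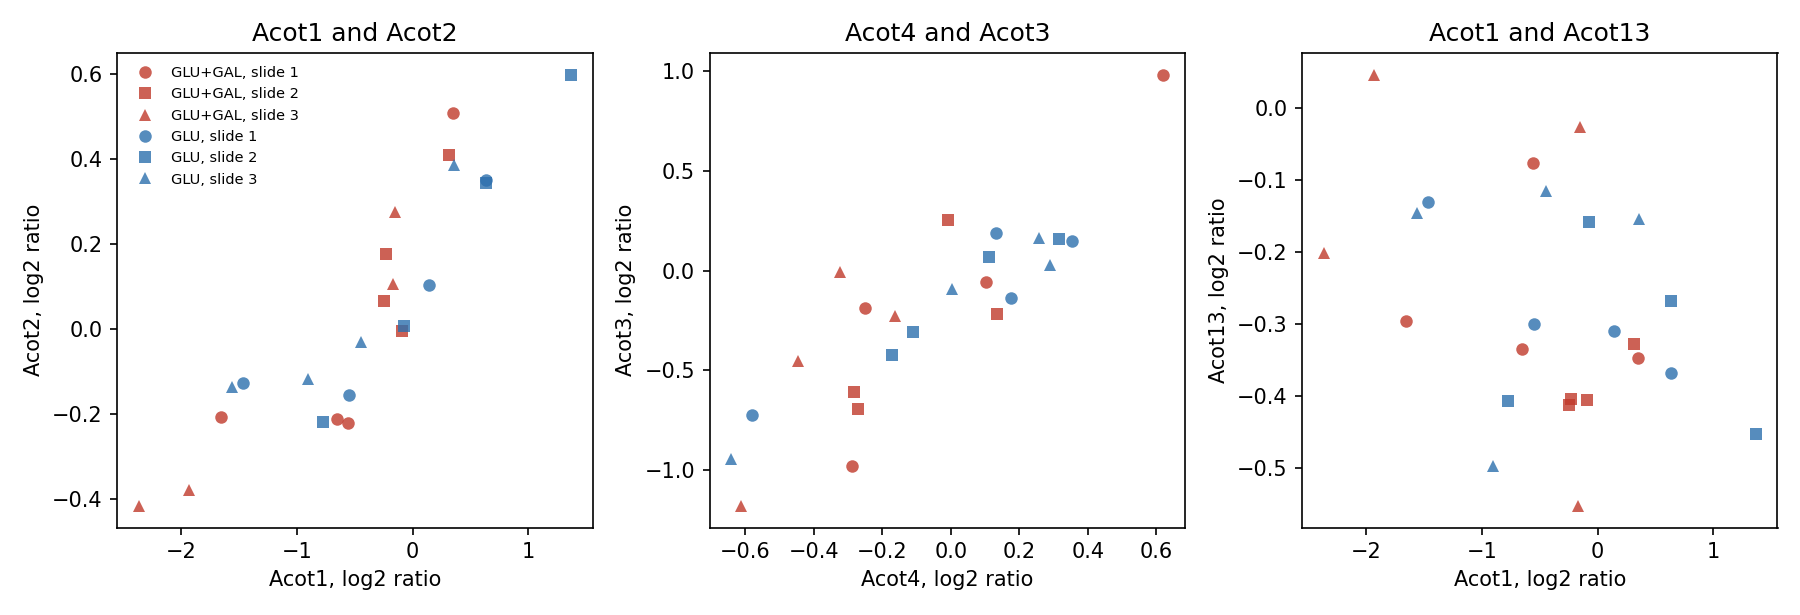
Each point is 1 mouse, coloured by diet (GLU+GAL red, GLU blue) and shaped by slide, on log2 ratios over the pool. Acot1 with Acot2 (r = 0.89) and Acot4 with Acot3 (r = 0.87) line up across both diets and all slides, while Acot1 with Acot13 (r = -0.39) do not.

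PPARalpha is a nuclear receptor that fatty acids switch on during food deprivation, and 12 of its known targets were set against the 7 thioesterases in 84 pairs. Of these, 57 passed the permutation test of Pearson's r (adjusted over the 84), all with r above 0 except those of Acot13, the loosest at 0.44 from 0. Over all tested genes, 11.2% of values of r with a member lay as far from 0. Acot1, Acot8 and Acot12 each passed with 11 of the 12 targets, Acot2 with 10, Acot4 with 7 and Acot3 with 4. Acot1 correlated at r = 0.89 and rho = 0.82 with Cyp4a10, a fatty acid omega-hydroxylase, and Acot12 at r = 0.90 and rho = 0.84 with Vnn1, the pantetheinase of coenzyme A breakdown (adjusted permutation p = 6e-05 for each). Plin2, a lipid droplet coat protein, stood at 0.83 with Acot1.

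Pdk4, the kinase that shuts off pyruvate dehydrogenase on fasting, was the target that did not follow Acot1 (r = 0.03, rho = -0.03, adjusted permutation p = 0.922), nor did it pass with any other member by Pearson's r. By Spearman's rho Pdk4 passed with Acot13 (rho = 0.44, adjusted permutation p = 0.0488). Fgf21, a fasting hormone of liver, stood at r = 0.52 with both Acot1 and Acot12 and at 0.01 with Acot3. Without the 2 mice farthest from the median of the thioesterase, its r was 0.31 with Acot1 and 0.33 with Acot12. Within slide 2 it was -0.32 and -0.15. With Acot1, Spearman's test missed the threshold (rho = 0.43, adjusted permutation p = 0.0524). Acot3 passed with Cyp4a10 (r = 0.53), Cyp4a14 (0.59), Ehhadh (0.47) and Cpt1a (0.46). With Cpt1a, Spearman's test missed the threshold (rho = 0.38, adjusted permutation p = 0.0938), and r was 0.21 without the 2 mice farthest from the Acot3 median. Within slide 3, r of Acot3 was 0.08 with Cpt1a and 0.25 with both Cyp4a10 and Ehhadh, against 0.71 with Cyp4a14. For Acot13 3 targets passed, all with r below 0: Cpt1a, the gate of mitochondrial fatty acid uptake (r = -0.60, rho = -0.61, adjusted permutation p = 0.00462), Fgf21 (-0.49) and Vnn1 (-0.46). Within slide 2, r was -0.06 with Cpt1a, 0.15 with Fgf21 and -0.12 with Vnn1. In slides 1 and 3 it ran from -0.80 to -0.29 for these 3 targets. Values centred by diet left 56 of 84 pairs, and without GLU+GAL 4 and GLU+GAL 12 there were 53. Without the 2 mice farthest from the median of the thioesterase in each pair, 47 passed. Within slides 1, 2 and 3 the counts were 5, 10 and 15 by exact permutation tests.

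**Figure D5:**
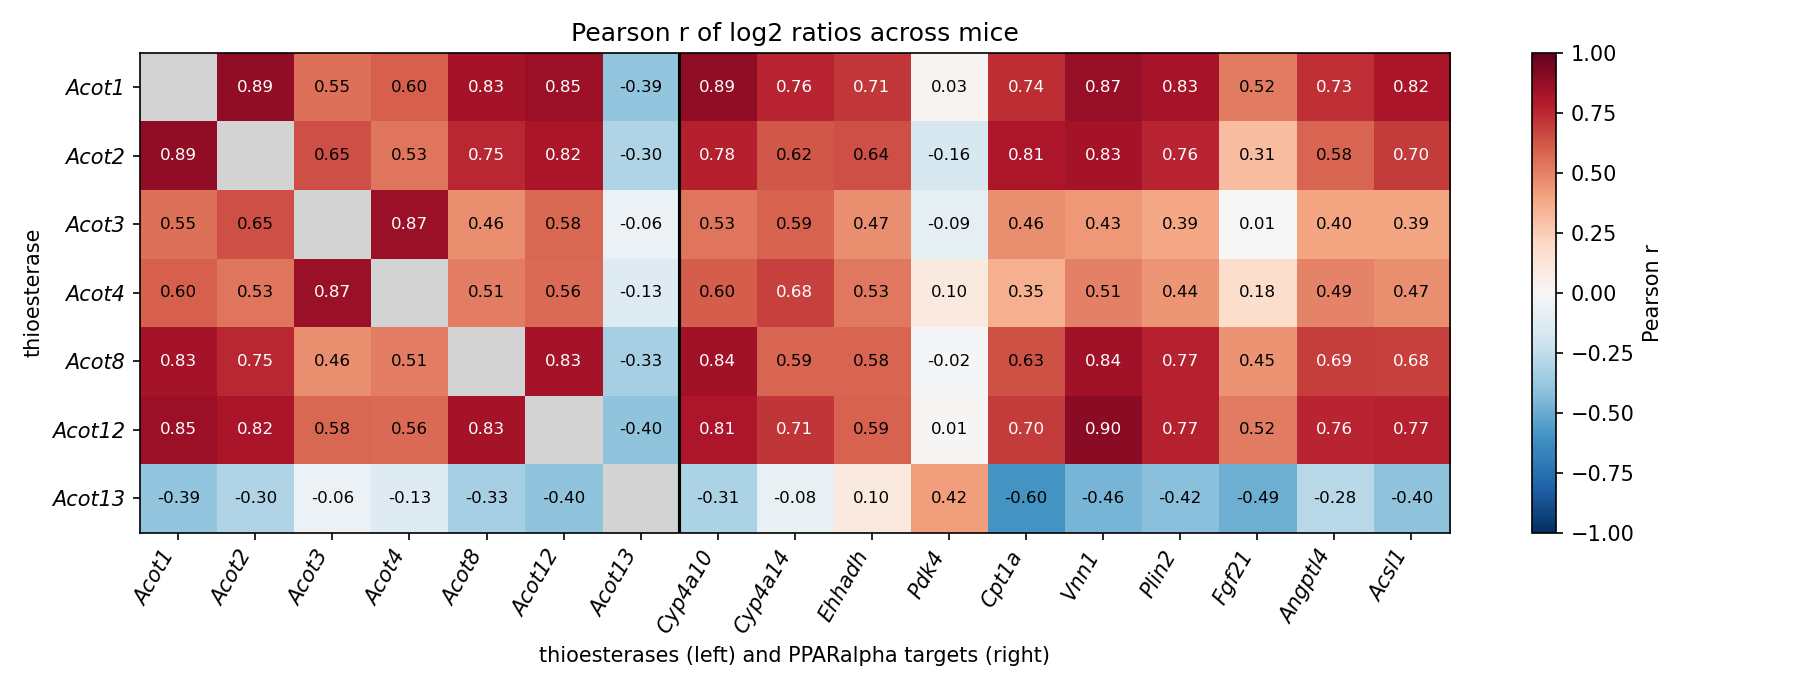
Cells give Pearson's r of log2 ratios over 24 mice, of 7 thioesterases (down) with each other (left of the line) and with 10 of the 12 PPARalpha targets (right). Rows of Acot1, Acot2, Acot8 and Acot12 are high outside Pdk4, Fgf21, Acot13 and the paler Acot3 and Acot4. Those of Acot3 and Acot4 are paler except with each other, and most of the Acot13 row is below 0.

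Over all tested genes, the transcripts most like each member were named by Pearson's r over 24 mice, as a description without a test. For Acot1 they were Acot5 (0.91), a peroxisomal medium-chain thioesterase of the same cluster, Eci2 (0.90) and Eci1 (0.89), isomerases of unsaturated fatty acid oxidation, Acot2 (0.89) and Cyp4a31 (0.89). Acot2 was closest to Acot5 (0.90), Acot1, Eci2 (0.87), Thap11 (0.84) and Eci1 (0.84). The list of Acot3 was Gm23952 (0.92), Acot4 (0.87), Acot5 (0.80), Gm32618 (0.75) and Rab9 (0.73), and that of Acot4 was Acot3, Gm23952 (0.86), Rab9 (0.81), Acot5 (0.73) and Slc35g1 (0.69). Acot5 was thus among the 5 closest genes of all 4 members of the cluster.

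Acot8 was closest to Eci1 (0.94), the lipid droplet protein Plin5 (0.91), the peroxisome division factor Pex11a (0.88), Hsdl2 (0.87) and Eci2 (0.86). Acot12 was closest to Eci3 (0.94), Eci2 (0.93), Vnn1 (0.90), the peroxisomal protease Lonp2 (0.88) and Pex11a (0.88). Eci2 and Pex11a were in both lists. Acot13 had another set, Isoc1 (0.87), the carbonic anhydrase Car7 (0.82), Ugdh (0.81), which makes UDP-glucuronate, the peroxisomal reductase Pecr (0.81) and Pole4 (0.80).

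Longer lists were described by counts. With Acot1, r was at or above 0.5 for 25 of 28 PPARalpha targets (median 0.79), 18 of 26 genes of beta-oxidation (0.70) and 10 of 16 genes of acyl-CoA carriage and transport (0.66), beside 4.82% of all genes. It was so for 5 of 15 genes of coenzyme A supply and breakdown (0.27), 3 of 18 acyl-CoA synthetases (0.12) and 1 of 13 other thioesterases (Acot5, median -0.07). With Acot3 and Acot4 the PPARalpha list gave 6 and 11 of 28, beside 1.23% and 1.61% of all genes, and with Acot13 0 of 28 (median -0.32), beside 6.03%. With Acot2 it gave 23 of 28, beside 4.31% of all genes, with Acot8 24 of 28, beside 5.59%, and with Acot12 25 of 28, beside 6.08%. The PPARalpha list shares genes with other lists, so these counts are not independent. Ehhadh is also in beta-oxidation, Cpt1a in carriage and transport, Vnn1 in coenzyme A supply and breakdown, and Acsl1 among the synthetases.

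By diet, no gene of these lists passed the adjusted threshold either. Among other thioesterases 0 of 13 had an unadjusted p under 0.05, and the smallest p were those of Acot9, a mitochondrial enzyme (-0.18 ± 0.10, SE), Lypla2 (-0.06 ± 0.04) and Lypla1 (0.09 ± 0.08), both protein depalmitoylases. Acyl-CoA synthetases, which work against the thioesterases, held 1 lower and 2 higher of 18 at that level: Acsm1 at -0.11 ± 0.05, Acsf3 at 0.10 ± 0.04 and Acss3 at 0.16 ± 0.07. In coenzyme A supply it was 0 of 15, with Ppcdc at 0.08 ± 0.06, Dcakd at -0.08 ± 0.06 and Pank1, a pantothenate kinase, at -0.10 ± 0.08.

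For acyl-CoA carriage 1 of 16 was lower at an unadjusted p under 0.05, Dbi, the acyl-CoA binding protein (-0.26 ± 0.07, SE, 22 values as 2 spots were left out as outliers, limma adjusted p = 0.844). Abcd2, a peroxisomal fatty acid transporter, and Crat, carnitine acetyltransferase, stood at -0.17 ± 0.09 and -0.21 ± 0.12. In beta-oxidation 1 of 26 was lower, Hacl1, of alpha-oxidation in peroxisomes (-0.29 ± 0.09), with Ehhadh at -0.18 ± 0.09 and Acads at -0.08 ± 0.04. Of PPARalpha targets 1 of 28 was lower, Plin2 (-0.34 ± 0.15), with Fgf21 at -0.59 ± 0.32. These counts stand beside 2.66% of all genes lower and 1.65% higher at that level, and the list medians ran from -0.08 for carriage and transport to -0.0014 for synthetases.

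Markers of Kupffer cells, the macrophages of liver, were lower in GLU+GAL in 10 of 10 genes, 5 at an unadjusted p under 0.05. Their mean per mouse ran from -0.59 to 0.30 in GLU+GAL and from -0.18 to 0.77 in GLU. Hepatocyte markers were lower in 7 of 9 genes, 4 at that level, with means per mouse from 0.11 to 0.44 in GLU+GAL and from 0.18 to 0.56 in GLU. Of all tested genes, 49.2% were lower in GLU+GAL and 2.66% were lower at that level. No marker of either cell type passed the adjusted threshold. Across 24 mice the r of Acot1 was -0.14 with the Kupffer mean and -0.07 with the hepatocyte mean, and that of the other members lay between -0.31 and 0.14 for both. Single hepatocyte markers ran both ways with Acot1, from -0.60 to 0.73, which their mean does not show. Larger values stood with other marker lists, 0.47 for Acot13 with kidney and adrenal and 0.40 with skeletal muscle, and -0.40 for Acot4 with stellate cells and -0.34 with kidney and adrenal. The kidney and adrenal mean rests on 2 of 6 listed genes and that of skeletal muscle on 3 of 6, as the others did not pass the filter. With the share of spots above background in Cy5, r was 0.01 for Acot1, 0.33 for Acot3 and 0.37 for Acot4, and with that in Cy3 it was -0.32 for Acot2. The part of these measures in the members' values was not tested further.

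Probes of the neighbouring genes could in principle pick up each other's transcripts. Among 36 pairs of the 9 member probes, each 60 bases long, the longest run of shared bases was 9, and at most 25 of 60 bases matched without gaps. Whether a probe hybridised to the mRNA of a paralog was not tested.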

How the data were processed

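Liver RNA of 24 mice was measured on Agilent 2-colour arrays. Spot intensity in both channels was deposited as scanner output of Agilent Feature Extraction (version 10.7.3.1, per the file headers), and dyes were not swapped. The authors also deposited a table of log2 values, 29287 rows with a median of 8.6 in each column. How it was scaled is unknown here, and it served as an alternative.

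Mean signals were background-corrected by normexp (offset 50) and normalised by loess within arrays in limma 3.58.1 under R 4.3.3. Control and outlier spots were left out. Of 56605 probes, 26675 had Cy5 well above background on 6 or more arrays of either diet, and gave 18650 genes, the brightest probe each. Diets were compared with lmFit and eBayes, 2-sided, with Benjamini-Hochberg adjustment over all genes at a threshold of 0.05. Correlations and spreads were tested by permutation (100000 resamples, or 40320 exact permutations within a slide) in scipy 1.17.1. Steps were tested on simulated data. Named were all members, the 3 genes with the smallest diet p in each list, the 5 closest transcripts of each member and the targets tested; Acot5, a member of the other-thioesterase list, was named in its correlations through the closest transcripts.

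The members and lists were chosen with earlier results of these data known. Values of some single genes of the lists are not reported here. Each array is labelled as a separate mouse, and litters are not given. The limma p-values set the diet difference against the spread between these mice, which includes that of RNA preparation, arrays and slides. Permutation p-values come from reshuffling values between mice. The number of arrays limits the precision. Alternatives covered background correction, normalisation, the filter, probes, the test, slides, replicate numbers and single arrays. Slide and scan cannot be told apart. Sequences came from RefSeq tables of GRCm38.p6; the arrays were designed on mm9, whose coordinates are not given. Plots were drawn with matplotlib 3.10.9.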

Additional observations from a re-analysis of the deposited data

How the results depend on the processing

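None of the 7 thioesterases passed the adjusted threshold under any alternative run, and no gene did except 1 without GLU 3 (limma adjusted p = 0.0304), so that leaving out single mice gave 0 to 1 genes. Leaving out each mouse in turn, the difference GLU+GAL minus GLU ran from -0.52 to -0.24 for Acot1, from -0.12 to -0.03 for Acot2, from -0.24 to -0.04 for Acot3, from -0.23 to -0.12 for Acot4, from -0.044 to 0.041 for Acot8, from -0.060 to 0.025 for Acot12 and from -0.032 to 0.022 for Acot13. Signs turned with Cy5 alone (Acot12 0.0081, Acot13 0.013), in the deposited table (Acot12 0.018, Acot13 0.069), with array weights (Acot8 -0.035, Acot13 0.0011), within slide 1 (Acot3 0.073, Acot4 0.026, Acot12 0.0020, Acot13 0.013), slide 2 (Acot8 -0.040) and slide 3 (Acot8 -0.0012, Acot13 0.045), and without GLU+GAL 4 and GLU+GAL 12 (Acot8 -0.012); the cause was not tested. Acot1 and Acot2 were lower under every alternative run. The labels give both diets the numbers 1 to 12 without calling them pairs. Same-numbered mice correlated at -0.38 to 0.52, 8 of 12 pairs above 0.1, and 4 of 12 GLU+GAL arrays correlated best with their own number. These values do not decide whether the numbers mark pairs. The main test left the numbers out, and a fit with them as a block was run as an alternative. With the replicate block 0 genes were called, and Acot1 stayed at -0.40 (unadjusted limma p = 0.0191, adjusted p = 0.704). Pairs of members past the threshold numbered 15 of 21, 1 within slide 2, 6 within slide 3 and 0 in the Cy3 pool channel, an alternative chosen after seeing the data like the second probes. Pairs with PPARalpha targets numbered 57 of 84, and 5, 10 and 15 within slides 1, 2 and 3, where 7 or 8 mice entered each. The pair of Acot13 with Acot3 turned to r above 0 in slide 2 (0.16) and slide 3 (0.085). It also did without the 2 mice farthest from the Acot3 median (0.26) and without GLU+GAL 4 and GLU+GAL 12 (0.14). That with Acot4 turned in slide 3 (0.13) and without GLU+GAL 4 and GLU+GAL 12 (0.13). Pairs of Acot13 further turned with Acot8 in slide 3 (0.052) and with Acot12 in slide 2 (0.43). With Cy5 alone 18 pairs passed, the 15 and those of Acot13 with Acot1, Acot8 and Acot12, all below 0. In the deposited values 14 did, without Acot4 and Acot8.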

Other observations

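Among 13 thioesterases outside the 7 genes, Acot5 stood at 0.73 or above with each of the 6 members other than Acot13. With Acot13, r over 24 mice was at or above 0.5 for 3 of 13 others, Bphl (0.62), Baat, which joins bile acids to amino acids (0.57), and Acot7, a cytosolic long-chain enzyme (0.54), beside 6.03% of all genes. Acot7 stood at -0.58 with Acot12 and -0.52 with Acot1. These genes were named after their values were seen. Acot6, next to Acot5 on chromosome 12, stood at 0.59 with Acot2 and 0.44 with Acot1. Them5, Them6 and Olah were not well above background on any array.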
